A study of Mus musculus with 18 samples.

Results

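The regions described here are places in the mouse genome that were listed as bound by TBR1 in 1 of 2 replicate chromatin immunoprecipitation libraries and had no counterpart in the other. They were chosen by the called positions alone, comparing the 2 lists of regions called against input DNA on chromosomes 1 to 19: a region was a member when it shared no base with any region of the other replicate. Of 34587 replicate 1 regions, 5445 (15.7%) were members, and of 37858 replicate 2 regions, 8827 (23.3%) were. The 14272 members of both sets stood beside 29142 replicate 1 and 29031 replicate 2 regions that overlapped the other list, called shared here. A region can overlap more than 1 region, so these last counts are unequal.

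TBR1 is a T-box transcription factor of the postmitotic excitatory neurons of the deep cortical layers. It is best known for shaping the identity and the thalamic projections of layer 6 neurons, and variants of its gene are linked to autism. In chromatin immunoprecipitation followed by sequencing (ChIP-seq), an antibody to the factor enriches the DNA fragments it is attached to, and a peak caller marks stretches where extended reads pile up higher than a background rate. The lower the pile, the larger the relative error of counting it.

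The series asks how the dose of Tbr1 in the newborn affects the connections of cortical layer 6, and holds 18 samples. The 6 ChIP-seq samples came from wild-type cortex of CD1 mice, an outbred strain, at postnatal day 2: 2 TBR1 libraries made with the same Santa Cruz antibody, 2 inputs without antibody, 1 rabbit IgG control (replicate 1) and, for replicate 2, 1 control that is titled IgG but carries an antibody label for a TBR1 blocking peptide. Whole cortex was used, so neurons of all layers and other cell types contributed chromatin. The labels do not say whether the replicates came from separate animals, and the 12 RNA libraries of sorted neurons were not used here, since no gene annotation of mm9, the build of the regions, was at hand to tie regions to genes. For the same reason positions are given in mm9 without gene names or sequences.

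The deposited values carried the depth behind each region. In each list all fold enrichments were whole steps of 1 size, within 0.00002, which gave back the pileup, the number of extended reads lying over the summit. The background was 4.72 reads per base at every replicate 1 summit and 4.52 at every replicate 2 summit, and a Poisson tail probability at that rate matched 100% of the deposited −log10 p values within 0.001, leaving out 13 summits per list whose probability was too small to compute. No summit of either list was thus scored against a locally higher input. The lowest listed pileup was 15 in replicate 1 and 14 in replicate 2, and the shortest region in either list was 350 bp. These are the lowest values seen in the lists, and the cutoffs of the caller are not given. On chromosomes 1 to 19, 303 replicate 1 regions had a pileup of 15, where 2021 had 22. In replicate 2, 340 had a pileup of 14, where 2268 had 20.

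The lists called against the negative controls were no separate measurement of the members. The replicate 1 list against IgG equalled the replicate 1 list against input in position and value in 39756 of 39756 rows, so it was counted once. The replicate 2 list against the blocking peptide held the same library's pileups multiplied by 0.379, over a background of 1.71 that corresponds to 4.52 before scaling. Its lowest summit had a pileup of 24. All 10893 of its regions on chromosomes 1 to 19 overlapped a replicate 2 region against input, and 10867 also overlapped a replicate 1 region.

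Members were low, narrow and single-peaked in both sets. The best summit of a replicate 1 member had a median pileup of 21 (quartiles 19 and 23, highest 47), which is a fold enrichment of 3.85 over background. A replicate 2 member had a median pileup of 20 (quartiles 18 and 22, highest 47), a fold of 3.80. Shared regions had medians of 28 in replicate 1 and 27 in replicate 2 and reached 361 and 381. The 2 sets of members therefore lay at nearly the same height, and the tallest regions of both lists were shared. These heights come from the lists that chose the members, so they are descriptions and were not tested.

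**Figure D1:**
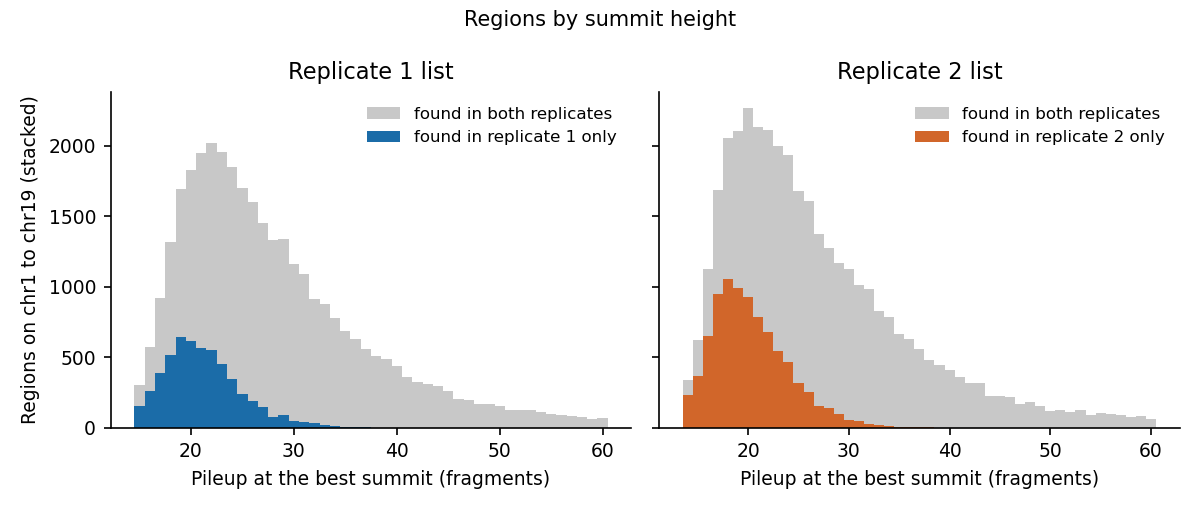
Number of regions (vertical axis) by pileup at the best summit in fragments (horizontal axis, shown up to 60) in the replicate 1 and replicate 2 lists. Coloured bars are regions found in 1 replicate only and grey bars, stacked on the same column, are the whole column; members gather around pileups of 18 to 22 and become few above 30.

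The share of regions without a counterpart fell with height. At a pileup of 15, 156 of 303 replicate 1 regions (51.5%) were members, and at 20 it was 619 of 1825 (33.9%). At 30 the share was 51 of 1163 (4.39%). In replicate 2 the shares were 368 of 624 (59%) at 15, 925 of 2268 (40.8%) at 20 and 58 of 1126 (5.15%) at 30. At each of these heights replicate 2 had the larger share. Above a pileup of 47 there were 2660 regions in replicate 1 and 2597 in replicate 2, and 0 of them were members.

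**Figure D2:**
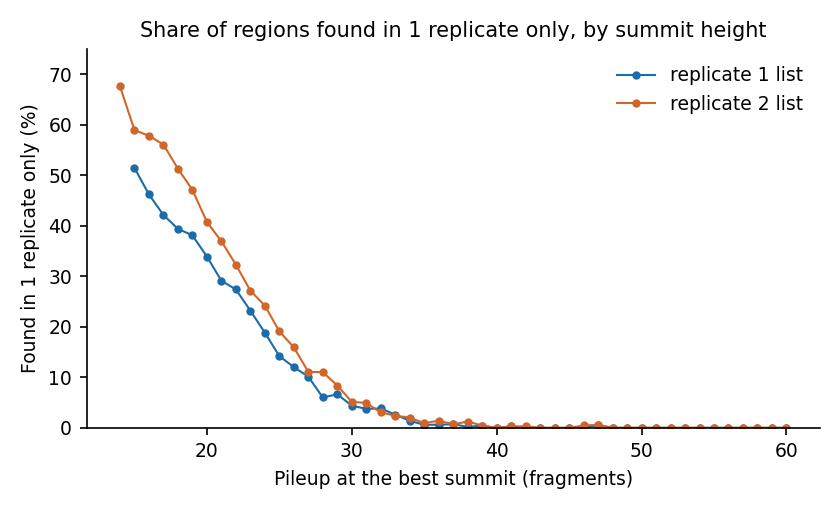
Percentage of all regions of a given summit pileup (horizontal axis, fragments) that were found in 1 replicate only (vertical axis), 1 point per pileup value and list. Both curves drop from over 50% at a pileup of 15 to about 5% at 30, with replicate 2 above replicate 1 over most of the low range.

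The low pileups carry a wide counting error. A pileup of 21, the replicate 1 median, has an exact Poisson 95% interval of 13 to 32.1 reads, and one of 20, the replicate 2 median, an interval of 12.2 to 30.9. The interval reached down to 14, the lowest pileup listed in replicate 2, for 3713 of 5445 replicate 1 members (68.2%) and for 30.6% of all replicate 1 regions. It reached 15, the lowest pileup listed in replicate 1, for 7185 of 8827 replicate 2 members (81.4%) and for 43.5% of all replicate 2 regions. The interval lay above that floor in 1732 replicate 1 members (31.8%) and 1642 replicate 2 members (18.6%), all with a pileup of at least 23 and 24. These intervals cover counting error only, for reads taken as independent, they restate the pileups of the lists that chose the members, and the pileup of a member in the other library is not in its list. The part of counting error in membership was not tested.

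Regions of the same height that did overlap give a measure of how far the libraries differed. The 1379 shared replicate 1 regions with a pileup of 21 had a median pileup of 22 in their replicate 2 counterpart, with 5% at or below 16 and 5% at or above 31. For the 1343 shared replicate 2 regions with a pileup of 20, the replicate 1 counterpart had a median of 23 and a range of 17 to 31 between the same percentiles. A counterpart had to be listed to be counted, so these ranges lack the lowest values.

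Members were narrower than shared regions, also at equal height. Median widths were 403 bp for replicate 1 members against 614 bp for shared regions, and 410 against 637 bp in replicate 2. In replicate 1 regions with a pileup of 18 to 21 the medians were 393 bp for 2352 members and 464 bp for 4432 shared regions. With a pileup of 30 to 47 they were 464.5 bp for 178 members and 737 bp for 9916 shared regions. Replicate 2 gave 403 against 492 bp in the lower band and 466 against 783 bp in the upper one. These bands mix heights. At a pileup of exactly 20 the medians were 395 against 464 bp in replicate 1 and 401 against 506 bp in replicate 2. At exactly 30 they were 458 against 675 bp and 456 against 728.5 bp. The gap in width was thus larger at 30 than at 20 in both lists. A longer region has more bases with which to meet one of the other list, so width too is tied to the rule.

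**Figure D3:**
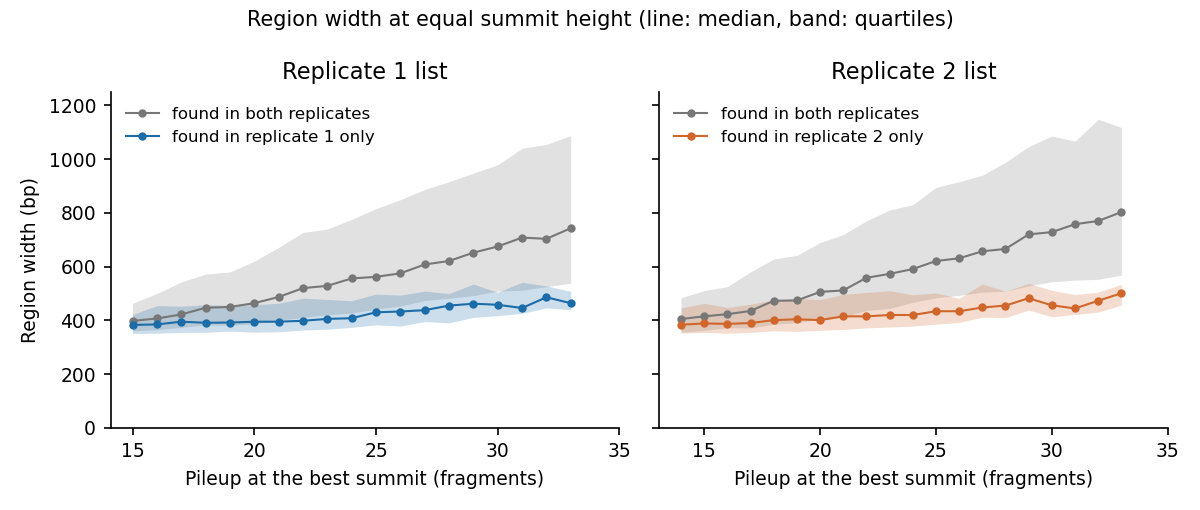
Region width in bp (vertical axis) by summit pileup in fragments (horizontal axis) for regions found in 1 replicate only (colour) and in both (grey), shown where a list had at least 20 members at that pileup. Lines are medians and bands run between the quartiles; both widen with height, shared regions by more.

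Many members had the shortest listed length. Exactly 350 bp were spanned by 780 replicate 1 members (14.3%) and 1260 replicate 2 members (14.3%), against 2.52% and 2.15% of the shared regions. More than 1 summit was listed in 72 replicate 1 members (1.32%) and 128 replicate 2 members (1.45%), against 12.9% and 13.9% of shared regions. The best summit lay close to the middle of the region in both sets, at a median of 0.495 of the width in replicate 1 members and 0.497 in replicate 2 members, as in shared regions with 0.497 in each list. In all, members covered 2382 kb or 9.94% of the bases of the replicate 1 list and 3960 kb or 15% of those of the replicate 2 list.

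Some members were strong by the caller's own measure. A best −log10 q of at least 10 was reached by 347 replicate 1 members (6.37%), where 44.6% of all replicate 1 regions reached it. In replicate 2 it was reached by 596 members (6.75%), where 42.7% of all regions did. The limit was a pileup of 28 in replicate 1 and 27 in replicate 2. A pileup of at least 28 was reached by 444 replicate 2 members. Both shares use the contrast that chose the members, so nothing further is read from them.

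Single regions show what the strongest members look like. The tallest replicate 1 member, at chr4:137463223-137463801, had a pileup of 47 (interval 34.5 to 62.5), a fold of 8.39 and a −log10 q of 27.2 over 579 bp with 1 summit. The nearest replicate 2 region lay 5.43 kb away and was itself shared, with a pileup of 22. Of the 196 shared replicate 1 regions with the same pileup of 47, the counterpart in replicate 2 had a median of 43 and a lowest value of 23. Only listed counterparts enter these values. In all, 2660 replicate 1 regions were taller than this member.

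The next replicate 1 member by fold, at chr1:20460336-20460845, had a pileup of 41 and lay 28 kb from the nearest replicate 2 region. A pair of members on chromosome 3, at chr3:124156120-124156704 and chr3:132880106-132880552, each had a pileup of 39 and lay 132 and 92.5 kb from a replicate 2 region. The fifth, at chr14:101504474-101504980, had a pileup of 38 and lay 245 kb from the nearest replicate 2 region, which was a member as well. These 4 regions measured 447 to 585 bp, had 1 summit each and stood alone rather than beside a region of the other replicate.

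In replicate 2 the tallest member, at chr15:14266269-14266814, had a pileup of 47 (interval 34.5 to 62.5), a fold of 8.70 and a −log10 q of 28 over 546 bp. The nearest replicate 1 region lay 82.1 kb away. Among the 166 shared replicate 2 regions of the same pileup, the replicate 1 counterpart had a median of 44.5 and a lowest value of 28.

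The others at the top of replicate 2 were as compact. The member at chr18:88259992-88260513 had a pileup of 46, the one at chr7:48102569-48103099 a pileup of 42 and the one at chr8:106523218-106523717 a pileup of 41. The fifth, at chr12:34624181-34624640, had a pileup of 39 and lay 114 kb from the nearest replicate 1 region. The chromosome 7 member lay 21.4 kb from a shared replicate 1 region with a pileup of 63, taller than any member. All 5 were 460 to 546 bp wide with 1 summit each.

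The widest members were low and long instead. In replicate 1 it was chr18:80243217-80245021, 1805 bp with 2 summits and a best pileup of 21. In replicate 2 it was chr15:85407212-85408749, 1538 bp with 3 summits and a best pileup of 22. Both had best pileups within 2 reads of the median of their set, while their widths were the largest there.

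Few members were also in the replicate 2 list against the blocking peptide. It held 19 of 8827 replicate 2 members (0.215%), where 27.9% of all replicate 2 regions were in it. It held 0 of 5445 replicate 1 members, where 30.6% of all replicate 1 regions were in it. The 0 is tied to the rule, since replicate 1 members overlap no replicate 2 region and every region of that list overlaps one. When gaps of up to 500 bp counted as overlap, the replicate 2 share was 1.62%. That list is made of the same replicate 2 pileups, so it adds no separate evidence on the members, and the overlap went with height. The lowest summit of that list had a pileup of 24, so regions with a pileup of 14 to 21 could hardly be in it. At that height it held 0 of 5958 replicate 2 members. Of shared replicate 2 regions it held 0 of 1581 with a pileup of 14 to 17 and 1 of 4802 with 18 to 21. With a pileup of 30 to 47 it held 11 of 205 replicate 2 members (5.37%) and 71.1% of shared regions. That band mixes heights. Of the 1126 replicate 2 regions with a pileup of exactly 30, it held 1 of the 58 members and 444 shared regions. The 19 had pileups of 25 to 47 and a median width of 714 bp. The 194 replicate 2 members with a pileup of at least 30 that were not in it had a median width of 460 bp. Only 11 of the 19 had a pileup that high, so these medians do not compare widths at equal height. The members at chr15:14266269-14266814, chr18:88259992-88260513 and chr8:106523218-106523717 were the tallest of the 19. They were 546, 522 and 500 bp wide.

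Members were spread among the other regions rather than apart from them. The gap from a member to the nearest region of the other replicate had a median of 13.1 kb in replicate 1 (quartiles 3.06 and 34.7 kb) and 15.4 kb in replicate 2 (quartiles 3.93 and 39.9 kb). Within 10 kb of a region of the other list lay 2401 replicate 1 members (44.1%) and 3521 replicate 2 members (39.9%). Over 100 kb away lay 291 (5.34%) and 614 (6.96%), with median pileups of 22 and 21, close to those of all members. In their own list, the nearest other region was a median of 15 kb from replicate 1 members and 15.1 kb from shared regions, and 13.5 against 13.7 kb in replicate 2.

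**Figure D4:**
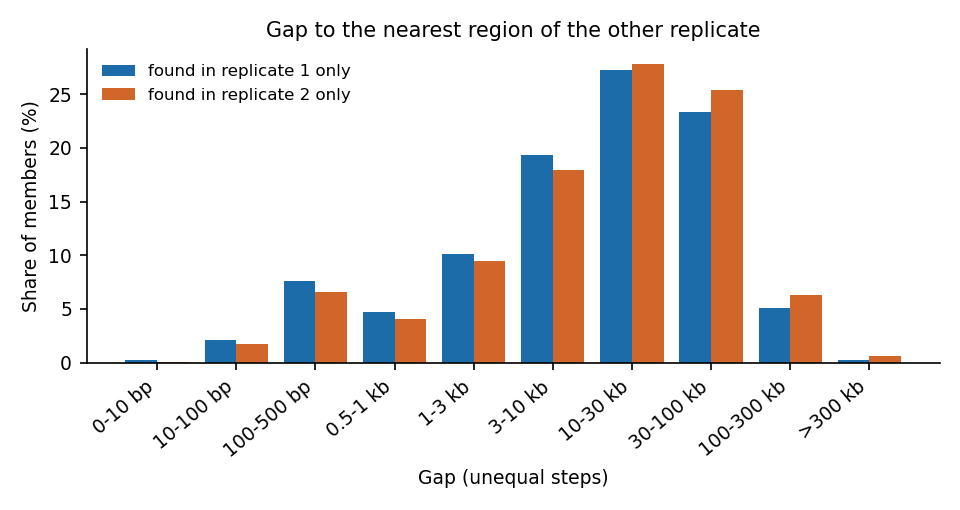
Percentage of members (vertical axis) by gap to the nearest region of the other replicate (horizontal axis, steps of unequal size), for regions found in replicate 1 only and in replicate 2 only. In both sets the step of 10 to 30 kb holds the most members; heights of steps of different size are not comparable as densities.

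Some members sat right beside a region of the other replicate. Gaps of at most 500 bp were found for 542 replicate 1 members (9.95%) and 744 replicate 2 members (8.43%). The neighbour in the other list was itself shared for 390 (72%) and 596 (80.1%) of them, where 76.7% of all replicate 2 and 84.3% of all replicate 1 regions were shared. Its median width was 619 bp for replicate 1 members and 621.5 bp for replicate 2 members, while the members themselves had medians of 404 and 419 bp and median pileups of 19 and 18. In their own list, 354 (65.3%) and 566 (76.1%) had another region within 500 bp. Of all members 8.56% and 9.45% had one, and of shared regions 10.6% and 11.1%. A shared neighbour overlaps a region of the member's own list, so the higher share is tied to the choice of members near the other list.

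The edge of the rule runs through pairs of this kind. Just inside it, replicate 1 member chr17:91486761-91487142 (pileup 16) and replicate 2 member chr17:91486252-91486760 (pileup 15) touched with no shared base, and their summits were 494 bp apart. On chromosome 18, chr18:36034845-36035219 (replicate 1, pileup 23) and chr18:36034492-36034843 (replicate 2, pileup 15) were 1 bp apart, with summits at a distance of 373 bp. Just outside it, replicate 1 region chr17:90854247-90854685 (pileup 16) counted as shared by 1 bp and chr10:3187699-3188121 (pileup 20) by 3 bp. In replicate 2, chr3:50104007-50104645 (pileup 19) and chr6:89188980-89189329 (pileup 15) each counted as shared by 3 bp. These are the extremes of the rule and were not compared with all regions near it.

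Members of the 2 sets were also found beside each other. Of the 542 replicate 1 members within 500 bp of a replicate 2 region, 152 (28%) had a replicate 2 member as the nearest one, where members are 23.3% of the replicate 2 list. Of the 2401 within 10 kb of any replicate 2 region, 848 (35.3%) were within 10 kb of a member. This counts any member within 10 kb, not the nearest region, so it cannot be set against the 23.3%. The same share for shared replicate 1 regions is not given here, so whether members lie closer to each other was not tested. Besides the touching pair and the pair on chromosome 18, the closest was chr2:35477165-35477514 in replicate 1 and chr2:35477516-35477865 in replicate 2, 1 bp apart, with pileups of 20 and 19.

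All 19 autosomes held members of both sets. The share of members ran from 13.5% of regions on chromosome 17 to 18.4% on chromosome 13 in replicate 1, and from 21.4% on chromosome 9 to 25.8% on chromosome 3 in replicate 2. It was higher in replicate 2 on 19 of 19 chromosomes, and each of them also had more regions in the replicate 2 list. Chromosomes of the same 2 libraries are not replicates. Across the 19 chromosomes the 2 shares had a Spearman rho of 0.52 and a Pearson r of 0.47, which is a description of chromosomes that share both libraries, size and base composition. In 503 windows of 5 Mb, the number of replicate 1 members had a rho of 0.69 with that of replicate 2 members and of 0.72 with that of shared replicate 1 regions. For replicate 2 members and shared replicate 2 regions the rho was 0.77. Windows rich in shared regions thus also held more members, and 7 windows held 0 replicate 1 members and 3 held 0 replicate 2 members. The fullest windows were chr18:65000001-70000000, with 33 members among 139 replicate 1 regions (23.7%), and chr11:115000001-120000000, with 53 members among 212 replicate 2 regions (25%). The latter share is near the 23.3% of the whole replicate 2 list, and the former is above the 15.7% of the whole replicate 1 list.

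Replicate 2 had more members than replicate 1 in the lists as deposited, but the order depended on the limit. With the lists as deposited there were 8827 against 5445, and with the same smallest pileup of 15 in both lists 8597 against 5520. With a −log10 q of at least 10 in both lists the counts were 3930 and 3129, from 16177 replicate 2 and 15423 replicate 1 regions. That limit is a pileup of 27 in replicate 2 but 28 in replicate 1. With a pileup of at least 28 in both lists the order was reversed, with 3111 in replicate 2 and 3677 in replicate 1. With a −log10 q of at least 5 in the member's own list the counts were 4582 and 3472. With an equal number of regions per list they were 6909 and 6582. The order turned as the common smallest pileup was raised. At 20 there were 6034 of 29917 replicate 2 regions (20.2%) and 5763 of 29782 replicate 1 regions (19.4%). At 21 there were 5464 of 27649 (19.8%) and 5663 of 27957 (20.3%). At both limits the longer list had more regions without a counterpart, so the order went with list length. A fold of at least 4 in both lists is the same cut as a common smallest pileup of 22, so it is no separate result. The common smallest pileups and this fold limit were chosen after the data were seen. With that fold there were 5039 in replicate 2 and 5438 in replicate 1. Of these 5438, 3152 were not members of the full lists. Members with pileups of 14 to 21 numbered 5958 in replicate 2 and 3159 in replicate 1, and those with 22 to 47 numbered 2869 and 2286.

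Raising the limit in both lists did not remove regions without a counterpart. With a smallest pileup of 30 in both, 3161 of 12754 replicate 1 regions (24.8%) and 2791 of 12358 replicate 2 regions (22.6%) had none. Set against the full list of the other replicate, the same regions left 178 (1.4%) and 205 (1.66%). With a smallest pileup of 48 in both, 639 of 2660 (24%) and 576 of 2597 (22.2%) had no counterpart of that height, while against the full lists 0 and 0 had none. By construction, a region that became single-replicate only under a higher limit had a lower counterpart in the other list. With a −log10 q of at least 10 in both lists, 3129 replicate 1 regions had no counterpart, of which 347 were members of the full lists and 2782 were not.

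**Figure D5:**
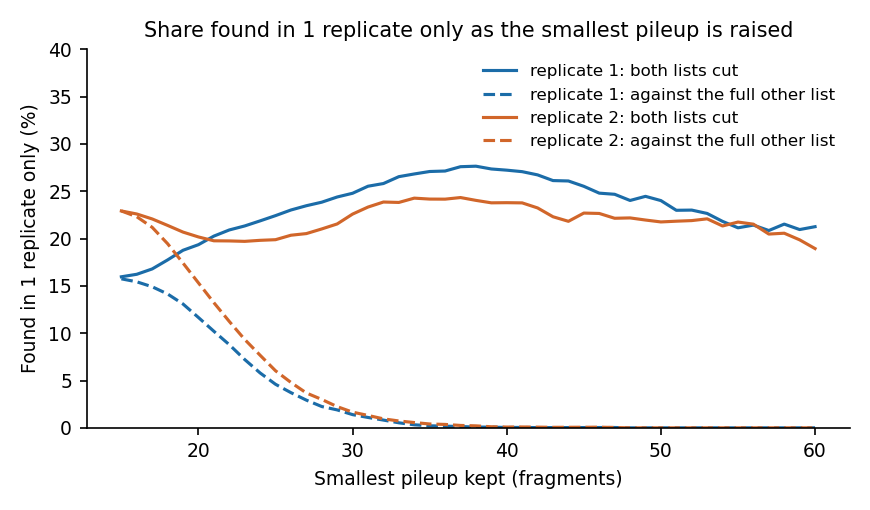
Percentage of regions found in 1 replicate only (vertical axis) as the smallest pileup kept, in fragments (horizontal axis), is raised. Solid lines cut both lists at that pileup and stay between about 15% and 30%; dashed lines cut the list of the members alone and compare with the full list of the other replicate, and reach 0 above a pileup of 47.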

How the data were processed

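For the ChIP-seq data the submitters' processing notes name MACS2 2.1.0, BWA 0.7.16a, Trim Galore 0.4.2 and mm9; cutoff and filters are not given. The peak names deposited by the authors give the replicate, its control and the words "no model", so calling was done per replicate. For each summit the deposited lists hold a whole-number score, the fold enrichment as a ratio to background, and the −log10 of p and of q.

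Summits with the same start and end were merged, keeping the best values. Pileup was computed from the deposited fold as (pileup + 1) / (background + 1), with the step estimated from the fold values; the replicate 2 negative-control list was fitted on summits it shares with the input list. Overlap was at least 1 bp and coordinates count from 1. Scripts ran in Python 3.11.15 with pandas 2.3.3 and scipy 1.17.1, were tested on simulated regions, and bedtools 2.31.1 gave the same 5445 and 8827 members. With 1 list per replicate nothing was tested.

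Named regions were, per set, the 5 of highest fold, the 3 of highest fold that a negative-control list holds, the widest, those nearest the edge of the rule on either side and the closest pairs; since the replicate 1 negative-control list repeats its input list, it named no further region. Members, rules and alternatives were chosen with earlier results of these data known. The planned motif, gene-distance and expression analyses were not run, as they need mm9 sequence or annotation, which was not used here.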

Additional observations from a re-analysis of the deposited data

How the results depend on the processing

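Alternatives for the limit of sharing were gaps of up to 500 bp or overlaps of at least 50% of the shorter region. Others were a −log10 q of at least 5 in both lists, equal list lengths and summits in place of regions. That q limit is the same cut as a common smallest pileup of 20. All chromosomes and a common smallest pileup of 15 were also used. Under these alternatives the counts of members stayed within 1.5 times the reported ones. They moved by more with a −log10 q of at least 10 in both lists (3129 in replicate 1, 3930 in replicate 2), with a −log10 q of at least 5 in the member's own list (3472 and 4582), and, for replicate 2, with a fold of at least 4 in both lists (5039), an alternative chosen after seeing the data, as were the common smallest pileups. A common smallest pileup of 30 also moved them by more, to 3161 in replicate 1 and 2791 in replicate 2. Fewer regions were compared under these limits. A similar count did not mean the same regions. With a −log10 q of at least 5 in both lists, 3472 of 5763 replicate 1 regions were members of the full lists. In replicate 2 it was 4582 of 6034. Excluding overlaps with the other negative-control list left 5445 and 8827 members. That limit could hardly change them, since those lists repeat or lie on the lists against input. The share of replicate 2 members in the blocking-peptide list was 1.62% with gaps of up to 500 bp and 0.415% among members with a −log10 q of at least 5. Leaving out a replicate could give no value, since membership needs both lists. No paired analysis was possible because no result comes from a test. The lowest members have pileups of 14 to 15 reads, so their heights are known only within a wide counting interval.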

Other observations

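On the X chromosome, which was not part of the sets, 77 of 367 replicate 1 regions (21%) and 156 of 440 replicate 2 regions (35.5%) had no counterpart in the other list. The median pileup of all X regions was 24 in replicate 1 and 22 in replicate 2. On mitochondrial and unplaced sequences, 4 of 34 replicate 1 regions and 8 of 38 replicate 2 regions had no counterpart.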
